A study of Mus musculus with 12 samples.

Results

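The synaptonemal complex is the protein zipper that joins homologous chromosomes along their length in the first meiotic prophase. Its 8 genes and the genes of a pair of HORMA domain axis proteins were followed in sorted cells of the fetal mouse ovary. The members were chosen by name, as Sycp1, Sycp2, Sycp3, Syce1, Syce2, Syce3, Tex12, 4930447C04Rik (the identifier under which the files list Six6os1), Hormad1 and Hormad2. All 10 were present once each among the 54532 genes of the count table. RNA was sequenced from E15.5 female embryos carrying the Tg(Pou5f1-EGFP)2Mnn reporter, which all 4 groups shared, and in which an OCT4 (Pou5f1) regulatory sequence drives GFP in germ cells. Dams had been injected intraperitoneally with dexamethasone (dex, a synthetic glucocorticoid) at 10 µg per g, or with saline, once a day from E12.5 until E15.5. Germ cells were collected as the GFP-positive fraction and somatic cells as everything else, after saline and after dex, with 3 libraries in each of the 4 groups. Every library came from ovaries pooled over at least 2 independently dosed litters after the mesonephroi had been removed, so the spread between libraries is a spread between pools and not between embryos.

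In females, germ cells enter meiosis in the fetal ovary. The chromosomes are first organised on a proteinaceous axis, which SYCP2 and SYCP3 build up as the lateral elements and which HORMAD1 and HORMAD2 decorate where homologs have not yet synapsed. SYCP1 then spans the gap between paired axes as the transverse filament, and SYCE1, SYCE2, SYCE3, TEX12 and SIX6OS1 form the central element that locks the SYCP1 molecules together. HORMAD1 and HORMAD2 also act in the surveillance of unsynapsed chromosomes, and are largely removed from the axis upon synapsis.

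The members lie on 9 chromosomes (GRCm38). Sycp1 (ENSMUSG00000027855, chromosome 3, 102818499 to 102936100, minus strand) and Hormad1 (ENSMUSG00000028109, chromosome 3, 95559677 to 95587671, plus strand) share a chromosome. The lateral element genes are Sycp2 (ENSMUSG00000060445, chromosome 2, 178345293 to 178407685, minus strand) and Sycp3 (ENSMUSG00000020059, chromosome 10, 88459569 to 88473236, plus strand). Syce1 (ENSMUSG00000025480) is on chromosome 7, Syce2 (ENSMUSG00000003824) on chromosome 8, Syce3 (ENSMUSG00000078938) on chromosome 15, Tex12 (ENSMUSG00000032065) on chromosome 9, 4930447C04Rik (ENSMUSG00000021098) on chromosome 12 and Hormad2 (ENSMUSG00000020419) on chromosome 11. Reads of overlapping genes on opposite strands could be told apart only if strand was used in counting, and the strand setting is not given in the sources used here. Sycp3 shares 660 exon bases with Chpt1 on the other strand, and Chpt1 stood at 25.8 CPM (the count scaled to the library size) in germ cells after saline and 49.8 CPM in the somatic fraction. 4930447C04Rik shares 192 exon bases with Six6, which stood at 1.06 CPM in saline germ cells and had no count in saline somatic cells. Syce2 overlaps Gcdh and Tex12 overlaps Il18, in both cases with 0 shared exon bases.

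The sequence before each start site was examined because all members were transcribed in the same cells. RefSeq (GRCm38.p6) gave 13 promoter windows for the 10 genes, and the 250 bases before each start were searched on both strands. The palindromic E-box CACGTG, the letters bound by many helix-loop-helix factors, occurred in 6 of the 10 genes and in 7 of the 13 windows, whereas 6.02% of all 32851 RefSeq promoter windows of this length held it. Sycp3 and Hormad1 each had 2 copies. The 2 windows of Hormad1 begin 2 bases apart and hold the same matches, so this promoter is counted 2 times among the 13 windows. Sycp1 had it 94 to 89 bases before the start and Tex12 93 to 88 bases before the start. In 4930447C04Rik the E-box lay before a RefSeq start that is 23009 bases inside the gene as the files give it, and in Syce2 only before the second annotated start. Sycp2, Syce1, Syce3 and Hormad2 had no match in this window. The stretches of 4 promoters that hold the E-box are shown with that motif in capitals, beside Hormad2 as the HORMA domain gene without a match. Each runs 5′ to 3′ on the strand of its gene and begins 200 bases before the RefSeq start. It ends where the gene begins in the files.
Sycp1 (chr3:102936101-102936300, minus strand): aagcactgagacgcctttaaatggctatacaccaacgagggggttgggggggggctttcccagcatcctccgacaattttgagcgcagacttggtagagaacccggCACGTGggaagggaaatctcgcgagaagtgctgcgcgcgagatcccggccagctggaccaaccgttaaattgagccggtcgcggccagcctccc
Sycp3 (chr10:88459387-88459568, plus strand): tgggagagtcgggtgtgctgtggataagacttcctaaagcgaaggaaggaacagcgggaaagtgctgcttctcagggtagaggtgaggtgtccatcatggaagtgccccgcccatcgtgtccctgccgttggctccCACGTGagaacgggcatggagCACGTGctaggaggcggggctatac
Tex12 (chr9:50561326-50561468, minus strand): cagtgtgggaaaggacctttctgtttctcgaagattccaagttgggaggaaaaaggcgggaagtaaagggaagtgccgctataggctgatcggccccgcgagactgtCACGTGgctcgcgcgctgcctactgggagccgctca
Hormad1 (chr3:95559477-95559676, plus strand): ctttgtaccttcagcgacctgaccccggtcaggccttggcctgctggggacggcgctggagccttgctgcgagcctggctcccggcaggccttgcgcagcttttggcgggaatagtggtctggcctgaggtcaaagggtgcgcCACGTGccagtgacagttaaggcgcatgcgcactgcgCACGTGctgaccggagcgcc
Hormad2 (chr11:4441106-4441282, minus strand): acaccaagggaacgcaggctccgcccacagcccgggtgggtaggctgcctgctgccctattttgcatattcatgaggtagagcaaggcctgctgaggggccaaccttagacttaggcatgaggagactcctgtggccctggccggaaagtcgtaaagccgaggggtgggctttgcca

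Other letters were found less often. The E2F core TCCCGC, which does not overlap the E-box, was present in 4 of the 10 genes (Sycp3, Syce2, Tex12 and Hormad1). It was in 6 of the 13 member windows, against 16.9% of all windows. The hexamer AGAACA, to which the glucocorticoid receptor can bind, was present in 1 gene, Sycp1, 231 to 226 bases before its start. This was 1 of the 13 member windows, against 16.1% of all windows. The full palindromic receptor site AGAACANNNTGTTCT, which contains that hexamer, was in no member window and in 0.00913% of all windows. CpG dinucleotides numbered 5 to 24 in the member windows, with a median of 13 against 6 over all windows. The E-box and the E2F core each contain a CpG, and their share over windows of similar CpG number was not computed. Of 26 other genes of the meiotic axis, pairing and synapsis, 19 had a RefSeq window and 4 of these held an E-box. These matches describe letters and are not evidence of binding.

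**Figure D1:**
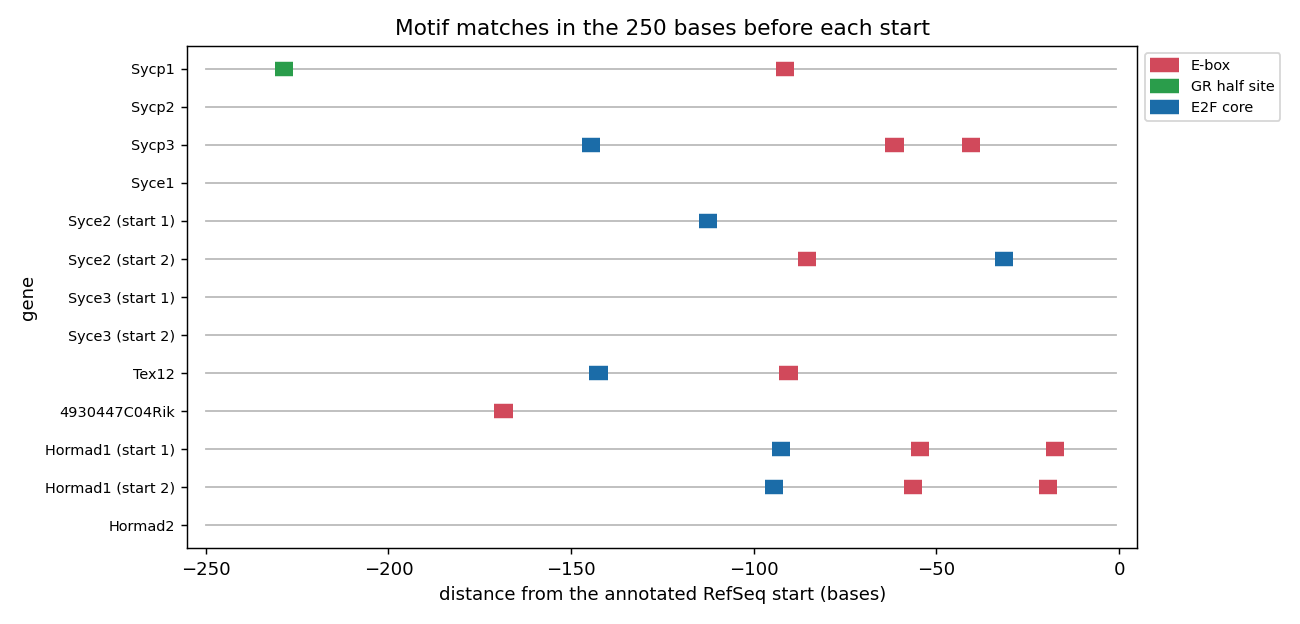
Motif matches in the 250 bases before each RefSeq start of the 10 genes. The x axis is the distance from the start in bases, each grey line is 1 of 13 windows, and coloured blocks are matches to the E-box (red), the E2F core (blue) and the glucocorticoid receptor hexamer (green). E-boxes appear in windows of 6 genes, and no window of Sycp2, Syce1, Syce3 or Hormad2 holds any match.

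The members were abundant transcripts of germ cells. Levels between genes were compared as FPKM, the deposited value per length and depth. In saline germ cells Sycp1 was at 722 ± 46.9 FPKM (SD, n = 3) and ranked 12 of 22046 protein-coding genes. Sycp3 at 407 ± 58.4 FPKM ranked 39 and Hormad1 at 368 ± 36.5 FPKM ranked 44, with ranges over the libraries that overlapped. 4930447C04Rik (239 ± 3.55 FPKM, rank 73) and Syce3 (237 ± 27 FPKM, rank 76) could not be ordered either. Sycp2 followed at 135 ± 6.45 FPKM, separate from its neighbours on both sides. Tex12 (108 ± 7.85 FPKM), Syce2 (93.4 ± 16.3 FPKM) and Syce1 (83.8 ± 8.05 FPKM) formed a run in which each gene overlapped the next. Hormad2 was the lowest, at 24.2 ± 3.17 FPKM and rank 2332, below every other member in every germ cell library. Sycp3 has a length of 1264 nt and shares 660 exon bases with Chpt1. Its level and rank depend on how reads in those bases were counted, which is not given in the sources used here.

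Transcript levels differed between partners of the same structure. Within the lateral element, Sycp3 was at 361, 386 and 473 FPKM in the 3 saline germ cell libraries and Sycp2 at 133, 130 and 142 FPKM. Within the central element, Syce3 and 4930447C04Rik exceeded Syce1, Syce2 and Tex12 in every germ cell library. The HORMA domain genes differed most. Hormad1 exceeded Hormad2 by a factor of 12.6 to 18 in the saline germ cell libraries and of 9.84 to 12.2 in the dex libraries, on the FPKM scale. These ratios did not overlap between treatments, which is a description of 3 libraries a group that was not tested. Dex germ cells had the same order of the 10 genes, from Sycp1 at 609 ± 6.79 FPKM to Hormad2 at 27.5 ± 3.74 FPKM. Together the members took 0.631% to 0.669% of all counts in saline germ cell libraries and 0.599% to 0.623% after dex.

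**Figure D2:**
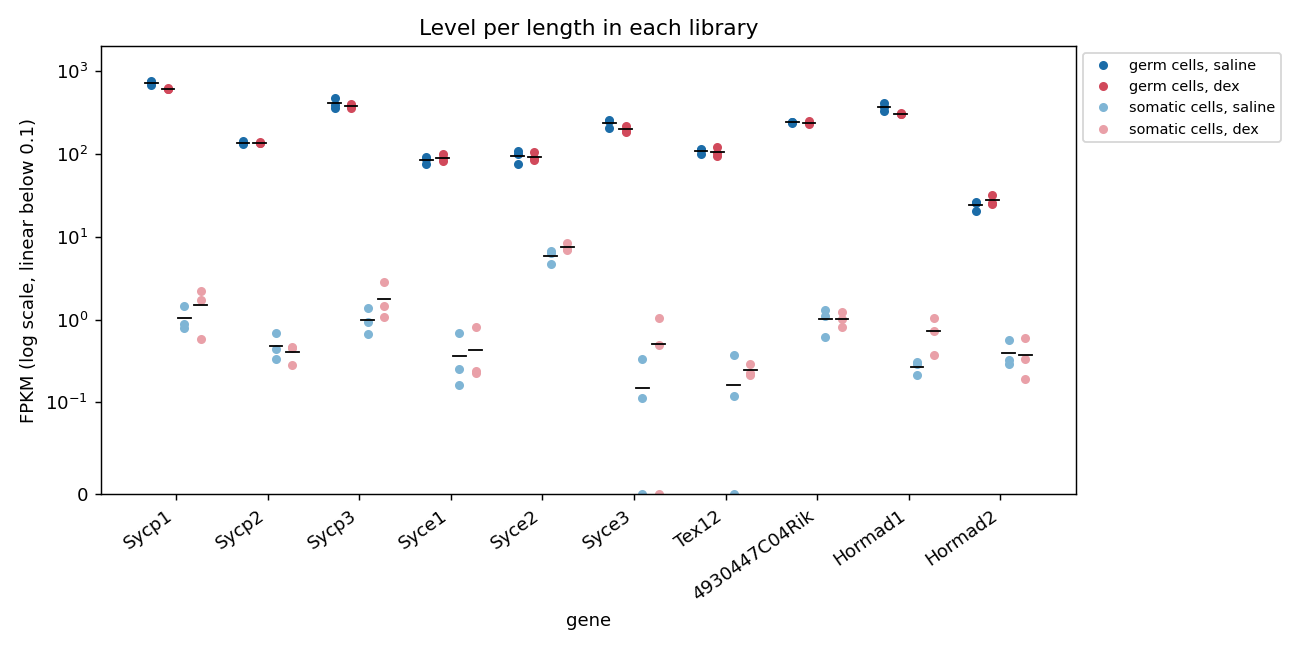
FPKM of each gene in each of the 12 libraries, on a y axis that is logarithmic above 0.1 and linear below. Points are libraries, coloured by group, and black bars are means of 3. In germ cells the levels run from 24.2 FPKM for Hormad2 to 722 FPKM for Sycp1 after saline, and in somatic cells Syce2 stands above the other members.

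Germ cells were compared with somatic cells of the same treatment to ask how far each transcript belongs to the germ line. Counts of all genes were fitted with the quasi-likelihood method of edgeR, with a Benjamini-Hochberg adjusted p of at most 0.05 as the call. All 10 members were higher in germ cells after saline, where 43.1% of 17941 genes tested were called higher, and all 10 after dex, where 42.0% of 18171 genes were. The median log2 difference over the members was 8.35 after saline and 8.04 after dex, against 0.00 over all genes in both comparisons. Bulk samples cannot tell fewer cells of a type from less RNA per cell. Sycp1 was at 2680, 2373 and 2574 CPM in the saline germ cell libraries and at 3.27, 5.42 and 2.91 CPM in the somatic libraries, a log2 difference of 9.37 (SE 0.17, edgeR adjusted p = 1.96e-15). Hormad1 was at 632, 571 and 686 CPM against 0.377, 0.516 and 0.546 CPM (log2 difference 10.34, SE 0.15, edgeR adjusted p = 9.87e-16). Germ and somatic libraries did not overlap for any member. The share of all genes without overlap was not computed, but 86.1% were called in either direction after saline and 84.3% after dex. The sort was also visible in the markers, of which 7 of 8 for germ cells were called higher in saline germ cells and Dnd1 was called lower (log2 difference -0.71, edgeR adjusted p = 0.0440). All 8 markers for pregranulosa cells and all 6 for stroma were called lower, as were 42.9% of all genes. For endothelium 3 of 4 were called lower and Tek was called higher (1.16, edgeR adjusted p = 1.32e-06).

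Syce3 and Tex12 were at the edge of detection in somatic cells. A count of 3, taken as the floor of detection, equalled 0.169 to 0.201 CPM. The saline somatic libraries held 3, 1 and 0 counts of Syce3, and its germ cell level exceeded the somatic one by a factor of 1560 (95% counting interval 609 to 5727). They held 2, 6 and 0 counts of Tex12, for a factor of 653 (331 to 1514). The fitted log2 difference of Syce3 was 10.49, and 11.68 without saline somatic replicate 1 or 9.91 without replicate 3. That of Tex12 was 9.29, and 10.60 without saline somatic replicate 2 or 8.70 without replicate 3. The size thus moved by more than 1.5 times without replicate 1 for Syce3 and without replicate 2 or replicate 3 for Tex12. The intervals cover counting error only.

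Somatic levels were expressed as a percentage of the germ cell level and set beside 8 germ cell markers, as the somatic fraction is everything the GFP gate left. The median over the members was 0.315% after saline and 0.378% after dex. The median over the markers was 0.459% and 0.434%. Ddx4, a germ cell RNA helicase, was at 0.184% after saline and 0.306% after dex, and Mael, a piRNA pathway gene, at 0.156% and 0.310%. Dazl was also higher after dex (0.109% and 1.30%). Lower percentages after dex were those of Rnf17 (0.591% and 0.559%), Tdrd5 (1.65% and 1.38%), Pou5f1 (0.326% and 0%), Dppa3 (0.604% and 0%) and Dnd1 (164.5% and 120.1%). The marker list was not uniform, since Dnd1 had a somatic level of 3.21 CPM after saline, which is 164.5% of its germ cell level of 1.95 CPM. 8 members were below 1% in both treatments, from 0.0651% for Syce3 to 0.455% for Syce1 after saline.

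Syce2 and Hormad2 were the members with the highest somatic percentage. Syce2, a central element protein gene, was at 13.5, 12.8 and 9.59 CPM in the saline somatic libraries and at 14.1, 16.9 and 14.5 CPM in the dex somatic libraries. These are 5.27% to 7.40% and 7.76% to 9.28% of the mean germ cell level of the same treatment. No somatic library gave any other member more than 2.47%. Percentages of this size were not particular to Syce2. Over the 26 other axis, pairing and synapsis genes the median was 2.08% after saline and 1.52% after dex. After saline they ran from 0.117% to 338%, and 11 of the 26 were under 1%, as were 12 after dex. Msh5 was at 7.73% after saline and 3.87% after dex, and Ccdc155 at 6.77% and 4.77%. The log2 difference of Syce2 between germ and somatic cells was 3.94 (95% interval 3.63 to 4.25) after saline, and that of Hormad2, the next smallest, was 5.89 (5.47 to 6.30). The intervals of Syce2 were also below those of the other members after dex, at 3.57 (3.31 to 3.82) against 6.10 (5.56 to 6.64) for Hormad2. Per length, Syce2 was at 5.89 ± 1.02 FPKM in saline somatic cells (SD, n = 3), and the other members were at 0.148 to 1.05 FPKM in the mean. Gcdh, which overlaps Syce2 on the other strand without shared exon bases, was at 8.41 CPM in germ cells after saline and 29.1 CPM in the somatic fraction. Its part in the somatic counts of Syce2 was not tested. Hormad2 was at 1.25% to 2.47% of its germ cell level after saline and at 0.725% to 2.25% after dex, with means of 1.70% and 1.42%. Among the markers Tdrd5 was near this level, at 1.65% and 1.38% in the mean, and the 6 markers other than Tdrd5 and Dnd1 lay lower after saline, from 0.109% for Dazl to 0.604% for Dppa3.

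**Figure D3:**
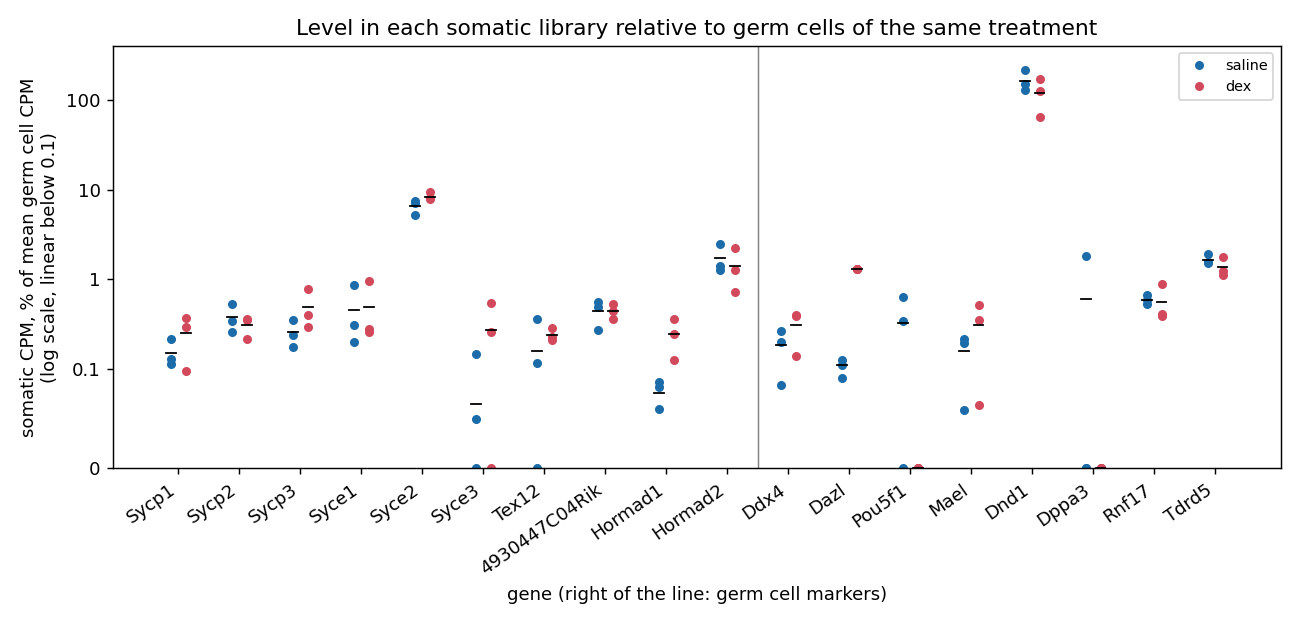
CPM in each somatic library as a percentage of the mean CPM of germ cells of the same treatment, on a y axis that is logarithmic above 0.1% and linear below. Points are libraries after saline (blue) or dex (red), black bars are means of 3, and the 8 genes to the right of the line are germ cell markers. Syce2 lies between 5.27% and 9.28% in all 6 somatic libraries, above every other member, and among the markers Dnd1 lies above it.

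Whether maternal dex altered these genes in germ cells was tested next. None of the 10 members was called (edgeR adjusted p from 0.232 to 0.984), where 0.208% of 16857 genes tested were called in either direction. An unadjusted p under 0.05 was found for 3 of 10 members and for 11.6% of all genes. The member changes ran from a log2 fold change of -0.25 to 0.21, with a median of -0.01 against 0.01 over all genes. At this depth and spread the 95% intervals of all members lay within a log2 fold change of -0.44 to 0.44.

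Sycp1, the transverse filament gene, was at 2680, 2373 and 2574 CPM in saline germ cells and at 2215, 2127 and 2161 CPM in dex germ cells. All 3 dex libraries were below all 3 saline libraries, with a log2 fold change of -0.22 (SE 0.06, 95% interval -0.36 to -0.08, edgeR adjusted p = 0.232). Hormad1 was at 632, 571 and 686 CPM after saline and at 534, 518 and 533 CPM after dex. These libraries did not overlap either, with a log2 fold change of -0.24 (SE 0.07, -0.40 to -0.09, edgeR adjusted p = 0.238). These were the 2 of 10 members without overlap between the groups, against 17.4% of all genes tested. Sycp1 passed the threshold in DESeq2 (log2 fold change -0.23, adjusted p = 0.0338, with 0.86% of genes called) and Hormad1 in edgeR without the low-count filter (-0.25, adjusted p = 0.0358, with 1.27% of genes called). The summed level of the 8 germ cell markers was 2691 to 2975 CPM in saline and 2562 to 2690 CPM in dex germ cell libraries, also without overlap, and without Dazl 1661 to 1857 CPM and 1619 to 1674 CPM, which overlapped. None of the 8 was called by edgeR or DESeq2. The summed level of 8 pregranulosa markers was 28.5 to 57.1 CPM in saline and 22.4 to 94.3 CPM in dex germ cell libraries. The part of germ cell purity in these values was not tested.

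The other members of the complex showed smaller or less regular differences. Syce3 was at 113, 137 and 139 CPM after saline and 107, 100 and 119 CPM after dex. The groups overlapped, and the log2 fold change was -0.25 (SE 0.09, 95% interval -0.44 to -0.06, edgeR adjusted p = 0.315). Hormad2 was at 55.6, 71.6 and 68.9 CPM after saline and 69.4, 70.0 and 85.6 CPM after dex. Its log2 fold change was 0.21 (-0.02 to 0.44, edgeR adjusted p = 0.491). Sycp3 (-0.09, interval -0.28 to 0.10) and Syce1 (0.12, -0.05 to 0.30) had intervals that included 0. Sycp2, Syce2, Tex12 and 4930447C04Rik had log2 fold changes between -0.03 and 0.02. 4930447C04Rik varied least after saline, at 1393, 1441 and 1403 CPM after saline and 1511, 1391 and 1337 CPM after dex.

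**Figure D4:**
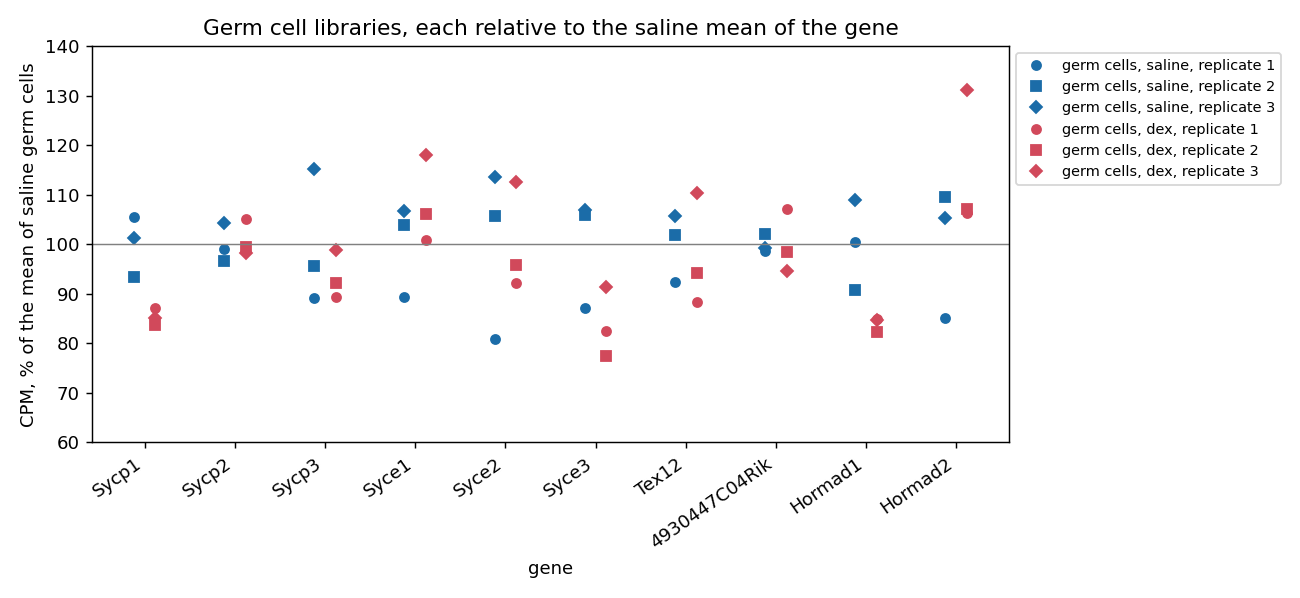
CPM of each gene in each germ cell library, as a percentage of the mean of the 3 saline germ cell libraries. Colours are treatments and marker shapes are replicate numbers. The 3 dex points lie below the 3 saline points for Sycp1 and Hormad1, and the treatments overlap for the other 8 genes.

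In somatic cells 7 of the 10 members had enough counts to be tested for an effect of dex, while Syce1, Syce3 and Tex12 did not. None of the 7 was called (edgeR adjusted p from 0.130 to 0.968), where 8.18% of 16556 genes were called, and 2 of the 7 had an unadjusted p under 0.05, as did 20.9% of all genes. DESeq2 called 0 of them as well, and its share over all genes in somatic cells is not given here. Hormad1 had 6, 8 and 9 counts in the saline somatic libraries and 11, 23 and 32 counts after dex. The groups did not overlap, and the log2 fold change was 1.41 (SE 0.52, 95% interval 0.29 to 2.53, edgeR adjusted p = 0.130). Syce2, with the CPM values given above, did not overlap either and had a log2 fold change of 0.34 (SE 0.16, 0.01 to 0.68, edgeR adjusted p = 0.225). These were the 2 of 7 tested members without overlap, against 25.4% of all genes tested. Sycp3 (0.84, interval -0.11 to 1.79) and Sycp1 (0.51, -0.34 to 1.36) had wide intervals. Of the untested genes, Syce3 had 3, 1 and 0 counts after saline and 0, 5 and 10 after dex, Syce1 had 6, 16 and 4 and then 6, 6 and 21, and Tex12 had 2, 6 and 0 and then 5, 4 and 4.

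Germ cell markers in the same somatic libraries are given beside these values. Ddx4 was at 0.503, 1.61 and 1.21 CPM after saline and 0.785, 2.20 and 2.26 CPM after dex, and Mael at 0.315, 1.16 and 1.03 CPM and then 0.302, 1.69 and 2.44 CPM. Of the 6 markers tested, 3 had a positive and 3 a negative log2 fold change, and in the mean Rnf17 went from 2.71 to 2.53 CPM, Tdrd5 from 2.21 to 1.67 CPM and Dnd1 from 3.21 to 2.61 CPM. Within the dex somatic group, replicate 1 was the lowest in Ddx4, in Mael and in 8 of the 10 members, all but Syce1 and Tex12. Among the other markers replicate 1 was also the lowest in Rnf17 and Dnd1. It was not the lowest in Tdrd5 (1.51, 1.35 and 2.14 CPM in replicates 1, 2 and 3) or in Dazl (12.9, 12.8 and 12.6 CPM). The summed level of all 8 markers was 10.0 to 12.9 CPM after saline and 18.6 to 27.1 CPM after dex. Without Dazl, the other 7 summed to 8.81 to 11.5 CPM after saline and 5.74 to 14.5 CPM after dex, which overlapped. The only marker called was Dazl, an RNA-binding protein gene of germ cells (1.17 CPM after saline, 12.8 CPM after dex, log2 fold change 3.43, SE 0.21, edgeR adjusted p = 2.92e-07). Pou5f1 and Dppa3 had no count in the dex somatic libraries. The part of germ cells left in the somatic fraction was not tested.

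**Figure D5:**
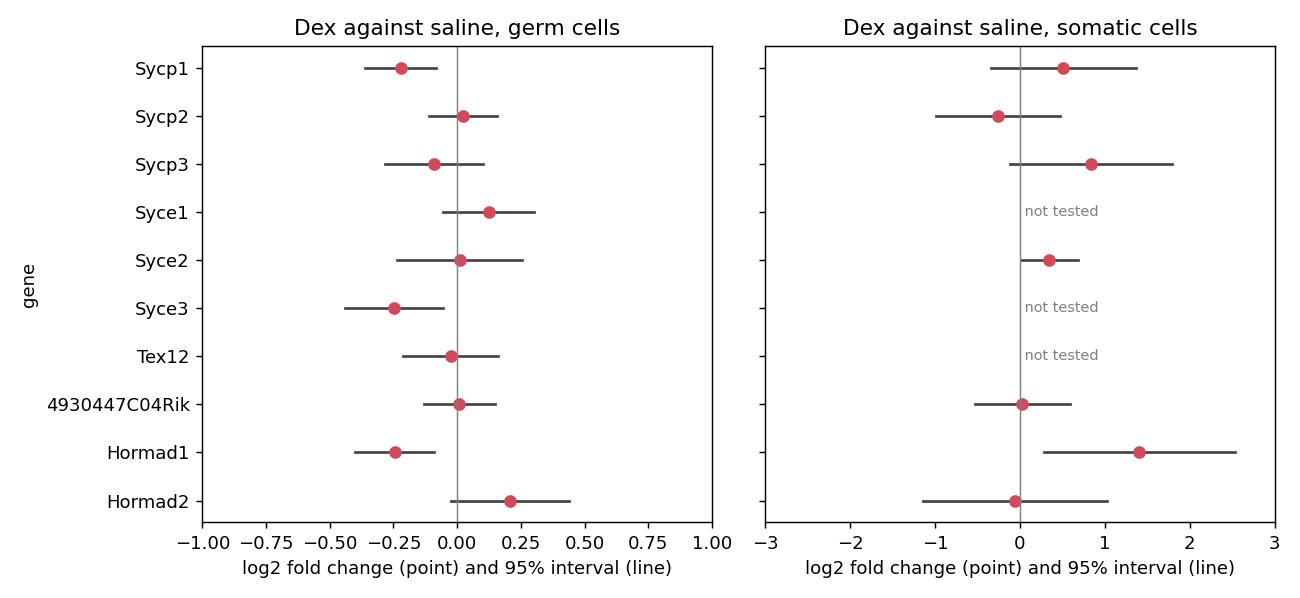
Log2 fold change of dex against saline in germ cells (left) and in somatic cells (right). Points are edgeR estimates, lines are 95% intervals, and the panels have different x scales. No member was called in either panel. The germ cell intervals lie within -0.44 and 0.44, and the somatic ones extend to 2.53 for Hormad1.

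The effect of dex in germ cells minus that in somatic cells was tested over all 12 libraries. Hormad1 was the only member called, where 1.62% of 19390 genes were. Its difference was -1.66 on the log2 scale (SE 0.36, 95% interval -2.43 to -0.89, edgeR adjusted p = 0.0280). The call rested on 6 to 32 counts a library on the somatic side, and leaving out 1 library ended it in 7 of 12 cases. These were dex germ replicate 2, saline germ replicate 3, dex somatic replicates 2 and 3, and each of the 3 saline somatic replicates, with edgeR adjusted p from 0.0516 to 0.0949. It was also lost when germ and somatic libraries of the same treatment and number shared a term (-1.66, edgeR adjusted p = 0.0536). Without dex somatic replicate 1, Sycp1 was called as well (-1.12, edgeR adjusted p = 0.0214). Without the low-count filter 3 members were called, Hormad1, Sycp1 (-0.75, edgeR adjusted p = 2.18e-05) and Sycp3 (-0.95, edgeR adjusted p = 0.0017), where 2.01% of genes were. Syce1, Syce3 and Tex12 had too few counts for the somatic test and entered this one through their germ cell counts. Their differences had an SE of 0.54, 0.95 and 0.70, so the lack of a call says little about them.

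Partners of the complex were described from a list of 26 other genes of the meiotic axis, homolog pairing and synapsis. In germ cells 24 could be tested for dex and none was called, with 5 at an unadjusted p under 0.05 (11.6% of all genes) and log2 fold changes from -0.16 to 0.45. Ccdc155, which links telomeres to the cytoskeleton (0.45, edgeR adjusted p = 0.153), and Msh5, which stabilises recombination intermediates (0.45, edgeR adjusted p = 0.122), had the largest. DESeq2 called these 2, against 0.86% of all genes. In somatic cells 1 of 18 tested genes was called, against 8.18% of all genes. This was Stag3, a meiotic cohesin subunit, at 27.4, 23.5 and 23.0 CPM after saline and 30.0, 38.2 and 35.5 CPM after dex (log2 fold change 0.49, SE 0.12, edgeR adjusted p = 0.0202). DESeq2 called Stag3 and Smc1b among 18 with an adjusted p. The share of all genes that DESeq2 called in somatic cells is not given here. The dex effect differed between cell types for 1 of 24 genes, Msh5 (0.99, SE 0.17, edgeR adjusted p = 0.00665), against 1.62% of all genes. Msh5 was at 113, 144 and 153 CPM in saline and 176, 182 and 198 CPM in dex germ cells, and at 9.94, 12 and 9.77 CPM in saline and 6.71, 7.94 and 6.90 CPM in dex somatic cells. Between saline germ and somatic cells, 22 of the 24 were higher in germ cells and 1 was lower, with a median log2 difference of 6.15. Over all genes 43.1% were called higher and 42.9% lower.

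HORMA domains also occur in proteins that act outside meiosis, and these genes differed from Hormad1 and Hormad2 in where they were expressed. The spindle checkpoint gene Mad2l1, the DNA polymerase zeta subunit gene Mad2l2 and the autophagy genes Atg13 and Atg101 were at 30.5% to 221.5% of their germ cell level in saline somatic cells. Mad2l1 (log2 difference 1.73) and Atg13 (1.56) were higher in saline germ cells, Mad2l2 was lower (-1.13) and Atg101 was not called (-0.07, edgeR adjusted p = 0.554). None of the 4 was called for dex in either cell type by edgeR or DESeq2. Over all genes edgeR called 0.208% in germ cells and 8.18% in somatic cells, and DESeq2 called 0.86% in germ cells. The unadjusted edgeR p was under 0.05 in 0 of 4 in germ cells and 0 of 4 in somatic cells. Over all genes this held for 11.6% and 20.9%. Counts of 0 among 4 genes do not set them apart from these shares.

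The genes with the profile nearest to 3 members were found over all 12 libraries, as the smallest root mean square difference in log2 CPM among 19380 genes. Sycp1 was nearest to the meiotic cohesin gene Smc1b (0.41), with Taf7l (1.21) and Dazl (1.32) farther off. Smc1b had 1936 CPM in saline germ cells, 1756 CPM in dex germ cells, 2.49 CPM in saline somatic cells and 6.56 CPM in dex somatic cells in the mean. Sycp3 was nearest to Ddx4 (0.35), Slc25a31 (0.44) and Cpeb1 (0.45). Hormad1 was nearest to the piRNA pathway gene Mov10l1 (0.24), then Ccnb3 (0.35) and Mael (0.36). This measure ranks by level as well as by pattern, and all 12 points share the large step between cell types.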

How the data were processed

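Libraries were prepared and sequenced by the study's provider. Fragments were aligned to mm10 with HISAT2 2.0.5 and counted with featureCounts 1.5.0-p3, per the submitters' processing notes. The authors deposited raw counts per gene and FPKM, computed from the counts, gene length and depth. Their DESeq2 1.20.0 tables, which hold fold changes and p-values for dex against saline, were not used. The files' gene lengths were used to recompute levels per length as an alternative. Libraries held 14658503 to 17616664 counts in germ cells and 15161804 to 18245507 in somatic cells.

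Counts were tested with edgeR 4.0.16 (quasi-likelihood, TMM, filterByExpr) in R 4.3.3 over all genes. CPM scales each count to the library total after TMM adjustment. Standard errors are those implied by the F statistic. DESeq2 1.42.0, RLE scaling, no filter, a replicate block and the omission of each library were alternatives. Fits were tested on simulated data. Members, gene lists and tests were chosen with earlier results of these data known. All members, all germ cell markers and the 3 nearest profiles of Sycp1, Sycp3 and Hormad1 were named. Axis and synapsis genes were named where edgeR or DESeq2 called them for dex. The lists for pregranulosa cells, stroma and endothelium were given as counts or sums. Their genes called for dex in somatic cells are not named. Lists for macrophages, erythroid and perivascular cells were set up and are not reported. The germ cell markers given singly, Tek, Rec8, Sycp2l, Syce1l, Ccdc155, the 4 other HORMA domain genes and the overlapping genes were picked out after their values were seen. Sequences came from RefSeq windows, which hold 250 bases before and 50 after each start.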

Additional observations from a re-analysis of the deposited data

Results flagged for a closer look

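The effect of dex on Hormad1 differed between cell types in the test of the difference, at -1.66 on the log2 scale (SE 0.36, edgeR adjusted p = 0.0280). Its log2 fold change was -0.24 in germ cells and 1.41 in somatic cells, and neither was called by itself. Dex libraries were below saline libraries in germ cells and above them in somatic cells, in 3 of 3 libraries each. Libraries did not overlap, in either direction, for 17.4% of all genes tested in germ cells and 25.4% in somatic cells. The somatic side rested on 6, 8 and 9 counts after saline and 11, 23 and 32 after dex. The call was lost in 7 of 12 omissions of 1 library (edgeR adjusted p up to 0.0949) and with a block by treatment and number (edgeR adjusted p = 0.0536).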

How the results depend on the processing

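All 10 members stayed higher in germ cells in both treatments under every alternative run. For dex in germ cells, 1 member was called without the low-count filter (Hormad1) and 1 by DESeq2 (Sycp1), and 0 under every other alternative. The DESeq2 value of 4930447C04Rik changed sign (-0.00064). For the difference between cell types, 3 members were called without the filter and 0 with a block by treatment and number, which was chosen after seeing the data. The cause was not tested. Leaving out 1 library gave 0 to 2 members. For dex in somatic cells no alternative gave a call.

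With the replicate block on the number alone, members called were 10 and 10 for germ against somatic cells, 0 for dex in each cell type and 1 for the difference. The labels do not say that a number marks a shared pool. Deviations of same-numbered germ and somatic libraries correlated at 0.066 to 0.121, each library best with its own number, a hint from the data and not from the design. Across treatments the correlations ran from -0.003 to 0.167, and not every library was nearest to its own number.

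Uncalled members changed sign when 1 library was left out. In germ cells Sycp2 ran from -0.018 to 0.050, Tex12 from -0.13 to 0.031, 4930447C04Rik from -0.052 to 0.042, Syce2 from -0.12 to 0.11 and Sycp3 from -0.17 to 0.021. In somatic cells Hormad2 ran from -0.59 to 0.30, 4930447C04Rik from -0.23 to 0.24 and Sycp2 from -0.47 to 0.066. In the difference 4930447C04Rik ran from -0.25 to 0.23, Hormad2 from -0.11 to 0.77, Syce1 from -0.92 to 0.75 and Sycp2 from -0.053 to 0.48. Hormad1 kept its sign in the difference, at -1.95 to -1.27. Syce3 and Tex12 had 0 to 10 counts in a somatic library, so their size of difference is imprecise.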

Other observations

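The meiotic cohesin gene Rec8 stood apart from its partners in the list of axis and synapsis genes. It was at 3.62, 5.71 and 5.26 CPM in saline germ cells and, in the somatic fraction, at 16.5, 14.6 and 18.2 CPM, the only gene of that list called lower in germ cells (log2 difference -1.74, SE 0.19, edgeR adjusted p = 5.52e-07). Stag3, whose product forms a complex with REC8, was at 887, 1100 and 1033 CPM in the same germ cell libraries. Sycp2l and Syce1l, the paralogs of Sycp2 and Syce1, had 13 and 18 counts over the 3 saline germ cell libraries and were below the filter.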
